A study of Mus musculus with 6 samples.

Results

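Tdg and Apobec3, a DNA repair gene and a cytidine deaminase gene that act on altered or targeted cytosines, were followed in small intestinal organoids from wild-type (WT) and Smarcad1 knockout (KO) mice. They are 2 of the 1420 genes in the deposited table, found by their symbols, and were chosen by their RPM in these 6 libraries, because both were lower in KO. That fall is therefore described without a test. The table itself holds genes that the authors' own test had selected between the same libraries. Intestinal crypts were cultured in gel with EGF, Noggin and R-spondin-1, where they form organoids of epithelium, and after passage and a further 5 days poly(A)+ RNA was taken from about 600 organoids per condition. The WT group has 3 libraries and the KO group has 3 libraries, all on a C57BL/6 background. The labels call the knockout Vil-Cre mediated, a driver active in intestinal epithelium, whereas the growth protocol and the study's methods name ZP3-Cre, a driver active in the oocyte, with littermates as controls. The deleted exons encode part of the ATP-binding region of Smarcad1, a chromatin remodelling ATPase, and the study's methods describe 1 mouse line, from a single targeted ES cell clone, as the one used. Ages and the pairing of libraries with animals are not given in the sources used here, so the spread between libraries may be partly technical.

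Tdg encodes thymine DNA glycosylase, which cuts the base out of a G:T or G:U mismatch left when methylcytosine or cytosine is deaminated at a CpG site. It also removes the oxidized forms of methylcytosine made by TET enzymes, and base excision repair then puts an unmodified cytosine in place. Apobec3 is the only APOBEC3 gene of the mouse. Its product deaminates cytosine to uracil in single-stranded DNA, which restricts retroviruses and mobile elements, and it is best known from lymphoid and myeloid cells.

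Levels are given in RPM, reads scaled to the depth of each library. Tdg was measured at 61.6, 60.03 and 59.8 RPM in WT replicates 1 to 3 and at 7.16, 8.44 and 13.3 RPM in KO replicates 1 to 3. Each KO library lay far below each WT library, and the lowest WT value was 4.49 times the highest KO value. The WT mean was 60.5 ± 1.003 RPM and the KO mean was 9.64 ± 3.24 RPM (SD, n = 3 each), or 15.9% of WT. On log2(RPM + 0.1) the difference was -2.69 ± 0.22 (SE). In bulk RNA, fewer expressing cells and less RNA per cell cannot be told apart.

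In Tdg, KO replicate 3 lay above the other KO libraries by more than counting error allows, while the intervals of KO replicates 1 and 2 overlapped. The values rested on 89, 123 and 190 reads in KO replicates 1 to 3, against 793 to 940 reads in the WT libraries. The exact Poisson 95% interval was 11.5 to 15.3 RPM in KO replicate 3, which does not reach the intervals of 5.75 to 8.82 RPM in KO replicate 1 and 7.02 to 10.1 RPM in KO replicate 2. These intervals cover counting error only. The coefficient of variation of Tdg was 33.7% in KO and 1.66% in WT, where the medians over the table were 13.4% and 8.34%. In KO, 8.87% of the genes of the table varied as much as Tdg or more.

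Apobec3 was measured at 54.5, 50.5 and 51.3 RPM in WT replicates 1 to 3 and at 21.7, 24.4 and 25.4 RPM in KO replicates 1 to 3. Here too the groups stood apart, the lowest WT value being 1.99 times the highest KO value. The WT mean was 52.1 ± 2.10 RPM and the KO mean was 23.8 ± 1.96 RPM (SD, n = 3 each), or 45.8% of WT. The log2 difference was -1.13 ± 0.11 (SE). The KO values of Apobec3 were tight, with a coefficient of variation of 8.21%, and the exact Poisson intervals of the KO libraries overlapped (19.1 to 24.4, 22.0 to 27.1 and 22.9 to 28.2 RPM).

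**Figure D1:**
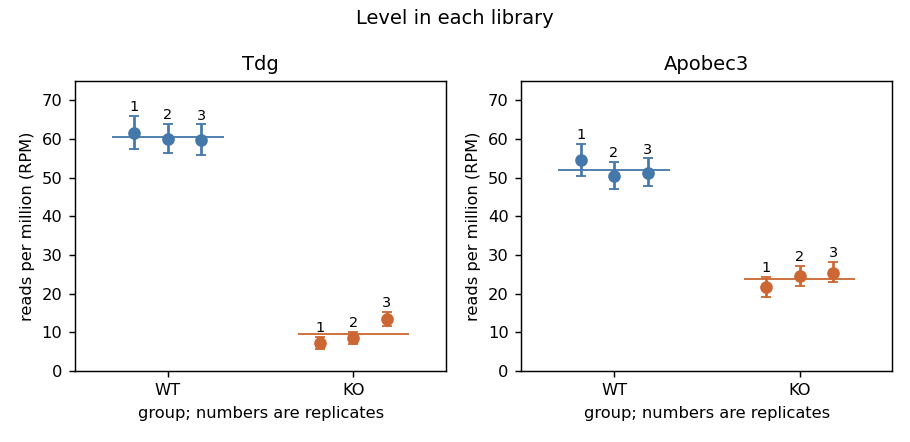
Level of Tdg (left) and Apobec3 (right) in RPM in each library, with exact Poisson 95% intervals for counting error as bars, the replicate number above each point and group means as lines. Tdg falls from about 60.5 to 9.64 RPM with KO replicate 3 above the other KO libraries, and Apobec3 falls from 52.1 to 23.8 RPM.

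The fall of Tdg was the deeper one in each KO library. KO replicates 1 to 3 kept 11.8%, 14.0% and 22.01% of the WT mean of Tdg, against 41.6%, 46.9% and 48.8% of the WT mean of Apobec3. The ratio of Tdg to Apobec3 reads, which is not corrected for length, was 1.13, 1.19 and 1.17 in the WT libraries and 0.331, 0.346 and 0.523 in the KO libraries. The ranges of this ratio in the groups did not overlap. Per kilobase of merged exons, the unit over which the authors counted reads, Tdg was above Apobec3 in WT, at 11.3 ± 0.187 against 5.51 ± 0.222 RPM per kb (SD, n = 3 each). In KO the means were 1.79 ± 0.604 for Tdg and 2.52 ± 0.207 for Apobec3, and the ranges overlapped. Both comparisons rest on the length used. Per kilobase of the longest annotated transcript, Tdg and Apobec3 had 17.3 ± 0.286 and 17.1 ± 0.688 RPM per kb in WT, which is within the spread. In KO they had 2.75 ± 0.926 and 7.81 ± 0.641 RPM per kb on that length, and the ranges did not overlap.

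The targeted gene, Smarcad1, measured over all its exons and not over the deleted ones alone, had 105, 94.7 and 96.3 RPM in the WT libraries and 21.7, 21.3 and 24.03 RPM in the KO libraries. Its log2 change of -2.14 lies between those of Apobec3 and Tdg. Tdg and Apobec3 also shared the order of the KO libraries, with replicate 1 lowest and replicate 3 highest, but so did 59.6% of all genes lower in KO. Over the 6 libraries, the deviations of Tdg and Apobec3 from their group means had a Pearson r of 0.79. As a description of how common this is, 24.0% of the other genes of the table had an r with Tdg at least as high. The r rests mainly on the KO libraries, where the log2 deviations of Tdg ran from -0.37 to 0.51, against -0.02 to 0.03 in WT.

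Among the genes of the table Tdg held rank 18 and Apobec3 rank 90 of the 673 genes lower in KO, ordered by log2 change. With genes under the 25th percentile of mean RPM set aside, the ranks were 3 and 32 of 590. A fall of at least 1 on the log2 scale, which both genes passed, was met by 8.1% of the table, and the median log2 change of the lower genes was -0.56. The groups did not overlap in both genes, with KO below WT, as in 47.2% of the table, and groups did not overlap in either direction in 98.5% of it. These shares are given for scale only, since the genes were chosen for their fall.

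**Figure D2:**
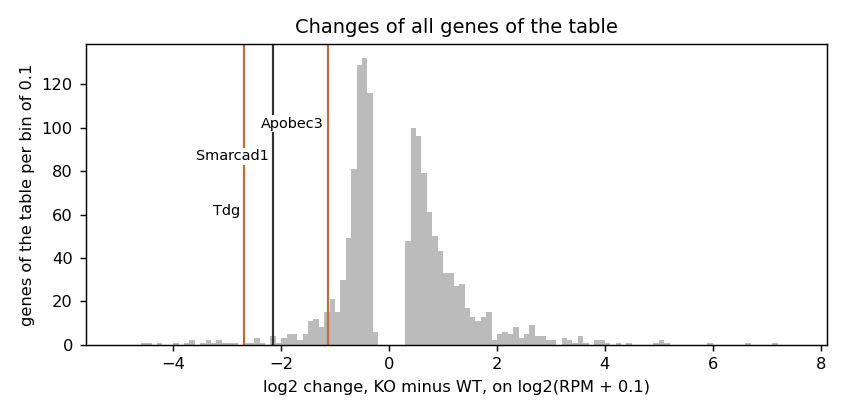
Histogram of the log2 change between KO and WT (x axis, on log2(RPM + 0.1)) over the 1420 genes of the table, with lines at Tdg, Smarcad1 and Apobec3. The lines stand at -2.69, -2.14 and -1.13, left of the bulk of lower genes, whose median is -0.56. The gap around 0 comes from the authors' selection.

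Tdg is a protein-coding gene on the plus strand of GRCm38, at chr10:82629828-82650799, with 11 annotated transcripts. Its longest coding transcript has 3502 bases in 10 exons. Much of this transcript also occurs in processed pseudogenes, intronless copies of Tdg elsewhere in the genome, and this bears on the level because the authors kept only uniquely mapped reads. Of the 3453 windows of 50 bases, the read length, 57.1% were found letter for letter in an annotated copy at another locus, and 85.8% of the 1214 windows within the coding region were. The copy Tdg-ps on chromosome 15 held 47.4% of the windows, Gm9855 on chromosome 10 held 25.4%, Gm5597 on chromosome 7 held 24.1% and AC122846.1 on chromosome 19 held 3.53%. These copies were not among the genes of the table. Reads were paired, so a mate or a splice junction can still place a shared read, but the RPM of Tdg may understate its level in all 6 libraries, and reads from a copy could be placed on Tdg. How far this enters the fall was not tested.

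**Figure D3:**
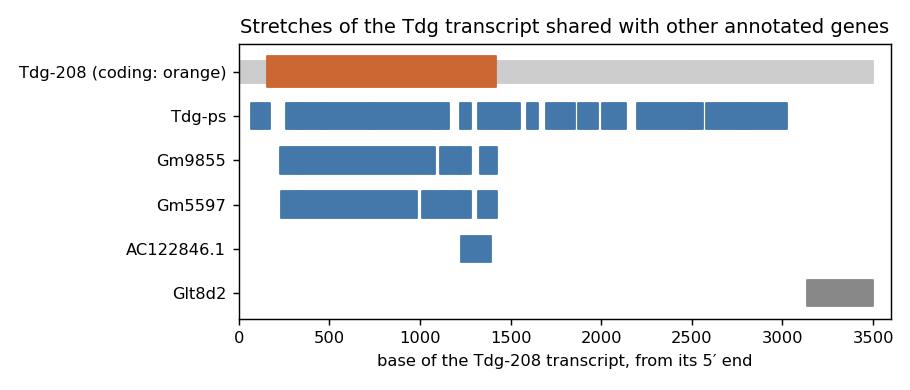
Stretches of the longest coding Tdg transcript (x axis, bases from its 5′ end, coding region in orange) that occur letter for letter over at least 50 bases in other annotated genes (rows). Most of the coding region is covered by Tdg-ps, Gm9855 and Gm5597, while the last stretch is shared only with Glt8d2, the neighbour that overlaps Tdg tail to tail.

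At its 3′ end Tdg overlaps Glt8d2, a glycosyltransferase gene on the minus strand, over 367 bases or 6.83% of its merged exons. Apobec3, also protein-coding and on the plus strand, is at chr15:79891659-79915906 with 20 annotated transcripts. No 50-base window of its longest coding transcript, which has 2765 bases, was found in an annotated gene at another locus. It overlaps D730005E14Rik, an annotated non-coding gene on its own strand at its 5′ end, over 676 exon bases or 7.15% of its merged exons, and Cbx7, on the minus strand at its 3′ end, over 100 exon bases or 1.06%. The libraries were directional, but whether counting used the strand is not stated, so reads in these overlaps are uncertain.

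The windows of 250 bases before the annotated starts of both genes are shown because the genes fell together, with each CpG, the site at which Tdg acts on deaminated or oxidized methylcytosine, in capitals. The sequences are those of RefSeq (GRCm38.p6), on the plus strand. Tdg has 1 listed start and its window is chr10:82629588-82629837. Apobec3 has 2 listed starts, with windows chr15:79892158-79892407 (first) and chr15:79894773-79895022 (second). Both Apobec3 windows lie inside the gene span given above, whose annotation (GENCODE) starts Apobec3 earlier, and the first also lies inside D730005E14Rik.
Tdg: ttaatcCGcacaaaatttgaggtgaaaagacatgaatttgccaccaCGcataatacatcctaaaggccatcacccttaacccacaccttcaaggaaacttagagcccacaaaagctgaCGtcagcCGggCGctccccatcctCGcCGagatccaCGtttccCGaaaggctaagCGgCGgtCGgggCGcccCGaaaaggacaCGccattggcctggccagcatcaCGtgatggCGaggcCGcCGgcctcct
Apobec3 first start: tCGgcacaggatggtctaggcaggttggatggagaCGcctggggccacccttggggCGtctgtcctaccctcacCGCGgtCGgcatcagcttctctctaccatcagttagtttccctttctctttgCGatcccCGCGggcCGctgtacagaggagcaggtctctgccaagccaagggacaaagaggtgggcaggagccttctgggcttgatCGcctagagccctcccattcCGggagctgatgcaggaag
Apobec3 second start: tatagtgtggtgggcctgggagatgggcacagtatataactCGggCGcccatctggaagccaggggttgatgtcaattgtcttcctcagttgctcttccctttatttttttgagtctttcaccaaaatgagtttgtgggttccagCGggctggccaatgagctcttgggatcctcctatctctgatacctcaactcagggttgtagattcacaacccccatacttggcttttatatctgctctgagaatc

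The Tdg window held 19 CpGs, more than 80.3% of the 32851 RefSeq windows of this length, in which the median was 6. The first Apobec3 window held 12 CpGs, more than 66.5% of the windows, and the second held 3, more than 29.03% of them. Windows of genes in the table had a median of 11. A few motifs, chosen after these sequences were seen, were searched on both strands. The Tdg window held 1 cAMP response element (TGACGTCA, in 1.55% of all windows), 1 E-box (CACGTG, in 6.02%) and 1 CCAAT box (CCAAT, in 33.9%). The first Apobec3 window held 1 match to GAAA, any pair of bases (NN), and GAAA again, the core of the interferon-stimulated response element, which was in 2.98% of all windows and 3.53% of those of genes in the table. The second held 1 CCAAT box and 1 TATA box (TATAAA, in 12.4%). The E-box and the cAMP response element each contain 1 of the counted CpGs. A match describes these letters only.

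Genes of the table within 1 Mb of each gene were set beside it. Around Tdg 6 genes were listed, of which 5 were lower in KO and 1 was higher. Of all genes listed, 47.4% were lower, and the direction of so few neighbours was not tested. The nearest, 1190007I07Rik, lies 6.6 kb before Tdg on the other strand. It was measured at 28.0, 32.8 and 36.03 RPM in WT and at 16.8, 15.0 and 16.5 RPM in KO, or -0.99 ± 0.13 (SE) on the log2 scale. Txnrd1, encoding cytosolic thioredoxin reductase, begins 183 kb after Tdg and had a log2 change of -0.62, with KO values from 356 to 598 RPM against 706 to 715 RPM in WT. AC158636.1 lies within Txnrd1 on the other strand and was low throughout, at 1.70 to 2.80 RPM in WT and 0.322 to 0.841 RPM in KO. Slc41a2, a magnesium transporter gene, had a log2 change of -0.87.

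The deepest fall among the neighbours of Tdg was in Aldh1l2, the mitochondrial 10-formyltetrahydrofolate dehydrogenase, which lies 837 kb away. It had 49.5, 47.5 and 48.1 RPM in WT and 4.43, 8.03 and 20.3 RPM in KO. As in Tdg, KO replicate 3 was the highest of the KO libraries, and the KO spread was wider still. Zfp938, a zinc finger gene 389 kb before Tdg, was the one higher gene, with 7.77 to 10.1 RPM in WT and 17.3 to 21.2 RPM in KO.

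Around Apobec3 6 genes were listed as well, with 4 lower and 2 higher in KO, and their changes were smaller than that of Apobec3. Cbx6, a Polycomb chromobox gene 57.0 kb before Apobec3, had 65.6, 69.2 and 67.03 RPM in WT and 48.9, 50.8 and 47.9 RPM in KO, a log2 change of -0.45. Sun2, encoding a protein of the inner nuclear membrane, was 149 kb before it and went from 30.8 ± 3.77 to 53.7 ± 3.72 RPM (SD, n = 3 each). Rpl3, a ribosomal protein gene, had a log2 change of 0.47 and Atf4, a transcription factor of the integrated stress response, one of -0.48. Gcat and Triobp, the farthest of these genes, had log2 changes of -0.39 and -0.40.

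**Figure D4:**
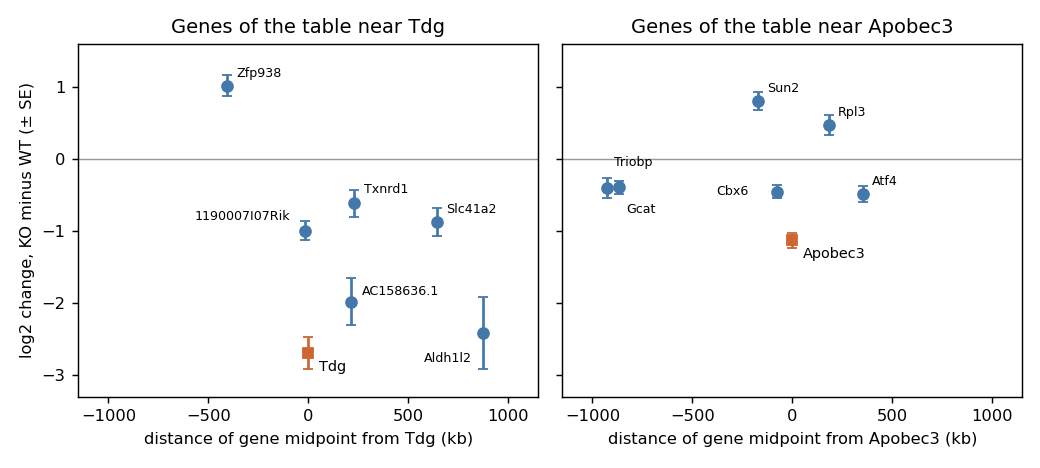
Log2 change between KO and WT (y axis, ± SE of the limma fit) of the genes of the table within 1 Mb of Tdg (left) and Apobec3 (right), by the distance between gene midpoints in kb. Near Tdg (-2.69) Aldh1l2 and AC158636.1 also lie below the Apobec3 value of -1.13, while near Apobec3 (-1.13) the other genes stay between -0.48 and 0.80.

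The genes whose values over the 6 libraries were most like those of each gene were found by the root mean square (RMS) difference of log2 values, each taken relative to the gene's own WT mean, among the 1064 other genes whose mean RPM reached the 25th percentile. For Tdg these were Sorl1 (RMS difference 0.26), Sprr2a1 (0.42), Aldh1l2 (0.42), Emid1 (0.43) and Smarcad1 (0.44). Sorl1, a sorting receptor gene, kept 13.0% of its WT level, with 207, 249 and 188 RPM in WT and 25.6, 25.3 and 32.7 RPM in KO. The others kept 18.7% (Emid1) to 22.9% (Sprr2a1). For Apobec3 they were Mfsd2a (0.07), Slc6a9 (0.07), Fabp1 (0.09), Gstm3 (0.10) and Kbtbd11 (0.10), all between 45.2% and 48.9% of their WT level. Mfsd2a and Slc6a9 encode carriers of lysophospholipids and of glycine, Gstm3 a glutathione transferase and Fabp1 the fatty acid binding protein of enterocytes. Apobec3 was closely matched by several genes, whereas the nearest gene to Tdg was 0.26 away. Few of these genes fell as far as Tdg, at rank 3 of 590 against 32 for Apobec3, and its KO values varied more. How far this sets the distances was not tested. Apobec3 itself held rank 28 by likeness to Tdg and Tdg rank 685 by likeness to Apobec3, with the same RMS difference of 1.12.

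**Figure D5:**
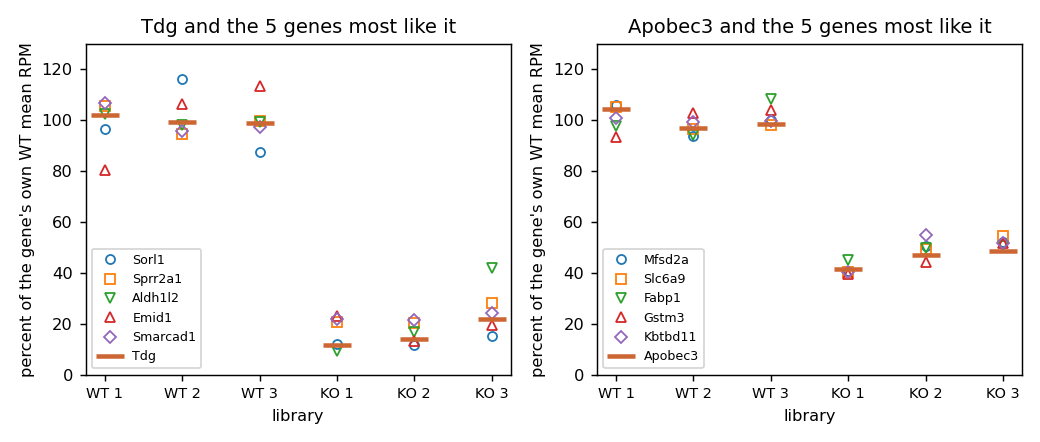
Level of each gene as a percent of its own WT mean RPM (y axis) in the 6 libraries (x axis) for Tdg (left) and Apobec3 (right), each drawn as a bar with the 5 genes most like it as open symbols. The Apobec3 symbols lie close together at 45.2% to 48.9% on average in KO, and those beside Tdg spread out in KO replicate 3, where Aldh1l2 is highest.

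Other genes of cytosine deamination, base excision repair, DNA methylation and retrovirus defence were looked up from lists of 145 genes. Of these, 8 were in the table, 4 higher and 4 lower in KO, all with a limma adjusted p-value under 0.05. As 99.9% of the table passed that threshold, with 52.5% of it higher and 47.4% lower, this count says nothing particular about the lists. The authors had selected these genes on the same libraries, so the p-values of single genes below are descriptive and no independent evidence. The median log2 change was 0.04 for the 8 genes and 0.38 for the table. The 137 genes outside the table were not analysed here. None of the 10 other DNA glycosylases (such as Ung, Smug1 and Mbd4), the 23 genes of base excision repair after the glycosylase or the 18 genes for proteins known to modify or bind Tdg was in the table, so Tdg could not be set beside its pathway.

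Of 16 genes of cytidine and adenosine deaminases and their cofactors, 1 was in the table. Rbm47 encodes an RNA-binding cofactor of C-to-U mRNA editing by Apobec1, and its mean of 509 ± 27.8 RPM in WT fell to 401 ± 29.2 RPM in KO (SD, n = 3 each), which is -0.35 on the log2 scale (limma adjusted p = 0.0175). That call was lost without 1 library in 3 of 6 cases (WT replicate 1, WT replicate 2 or KO replicate 2). Of 27 genes of DNA methylation writers, oxidases and readers, 3 were in the table. Gadd45a, a stress-induced gene linked to DNA demethylation and repair, fell from 80.4 ± 5.58 to 57.5 ± 4.63 RPM (limma adjusted p = 0.00776). Mbd1, which encodes a methyl-CpG binding protein, rose from 126 ± 9.97 to 170 ± 8.60 RPM (limma adjusted p = 0.00930). Cxxc5, which encodes a CXXC zinc finger protein of unmethylated CpG sites, rose from 11.9 ± 3.10 to 25.7 ± 4.52 RPM (limma adjusted p = 0.00588).

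Of 51 genes of retrovirus restriction and the interferon response, 4 were in the table, 2 higher and 2 lower in KO. Oas1a, an interferon-induced oligoadenylate synthetase, was measured at 7.31, 7.09 and 8.81 RPM in WT and 16.7, 12.8 and 12.4 RPM in KO. Ifit1, an interferon-induced protein that binds foreign RNA, had 5.91, 5.24 and 5.29 RPM in WT and 9.50, 8.72 and 9.39 RPM in KO. Oas1a and Ifit1 were both higher in KO, with limma adjusted p-values of 0.00447 and 0.00191. Oasl1, a relative of Oas1a and also an interferon-stimulated gene, went the other way, from 60.8 ± 3.55 to 41.4 ± 4.35 RPM (limma adjusted p = 0.00616). Tfrc, the transferrin receptor, by which mouse mammary tumor virus enters cells, fell from 661 ± 12.3 to 443 ± 94.9 RPM (limma adjusted p = 0.0129).

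Markers of cell types in the table differed between the groups, as did nearly every gene of this selected table, of which 52.5% were higher and 47.4% lower. Markers outside the table were not analysed here. Of 24 enterocyte markers 12 were in the table, 11 of them lower in KO, with a summed level of 23127 to 26165 RPM in WT and 16667 to 18071 RPM in KO. Of 24 Paneth cell markers 16 were in the table, all higher in KO, with sums of 9532 to 10958 RPM in WT and 20198 to 29980 RPM in KO. The 9 goblet cell markers in the table (of 17, with 8 higher and 1 lower) summed to 2146 to 2409 RPM in WT and 3274 to 5957 RPM in KO. The 5 enteroendocrine markers (of 20, all higher) summed to 260.5 to 318 RPM and 428 to 613 RPM. The 4 genes of the stem cell list in the table (Rnf43, Sox9, Gkn3 and Ephb3, of 19, all higher) summed to 303 to 345 RPM and 457 to 488 RPM. Of 13 tuft cell markers only Dclk1 was in the table, at 15.5 to 26.9 RPM in WT and 10.9 to 12.2 RPM in KO, and of 20 proliferation markers only Rrm2, at 185 to 196 RPM in WT and 138 to 149.8 RPM in KO. Of 22 leukocyte markers only Itgam was in the table, at 8.55, 10.7 and 9.33 RPM in WT and 2.82, 5.83 and 4.55 RPM in KO, and none of 14 mesenchymal and endothelial markers was. No marker present in the table was at 0 in all libraries. The part of these shifts in the falls of Tdg and Apobec3 was not tested.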

How the data were processed

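Poly(A)+ RNA of 3 WT and 3 KO organoid samples was sequenced as 50 bp paired-end reads from directional libraries. The authors trimmed reads with Trim Galore (0.4.2), mapped them to GRCm38 with HISAT2 (2.0.3), and in SeqMonk used uniquely mapped reads only, counted over the exons of merged transcripts. The deposited values are RPM on a linear scale, for 1420 genes that the authors had selected with DESeq2 on these libraries. The corrected p-values deposited by the authors were not used. Genes outside the table were not analysed here.

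Samples were grouped by title. Within each library all values up to 1000 reads were whole multiples of 1 step (within 0.1), which gave depths of 1.24e+07 to 1.57e+07 reads and a floor of 3 reads at 0.192 to 0.242 RPM. No count test was run on these inferred reads. limma (3.58.1, R 4.3.3) was fitted to log2(RPM + 0.1) over the table with group as the only term. Its two-sided p-values were adjusted by the Benjamini-Hochberg method and called at 0.05. Lengths, overlaps and transcripts came from GENCODE M21, in which 1393 genes matched by symbol and position. The members and lists were chosen with earlier results of these data known. Named were both genes, Smarcad1, listed genes of the pathway lists, overlapping genes, genes within 1 Mb and the 5 most alike. Deviations of same-numbered libraries from group means had correlations of -0.08, 0.09 and 0.06 across genes, so the numbers were not taken to pair the samples. Alternatives were a pseudocount of 1, centring, a replicate block, an intensity trend, a filter at the 25th percentile, a threshold of 0.01, removal of a length trend, ratios of mean RPM and leaving out each library.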

Additional observations from a re-analysis of the deposited data

How the results depend on the processing

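Under the 11 alternatives run for each gene, the log2 change ran from -2.94 to -2.50 for Tdg and from -1.25 to -1.06 for Apobec3. Both genes were chosen for their fall and their groups did not overlap, so the kept direction is no support for it. Leaving out each library in turn gave -2.94 (without KO replicate 3) to -2.50 (without KO replicate 1) for Tdg and -1.18 to -1.06 for Apobec3. With the trend in transcript length removed, which also takes out the mean difference between libraries, Apobec3 had a log2 change of -1.25, a move beyond the replicate SD of 0.09, and Tdg had -2.75. Centring shifted all changes by -0.09. The majority of called genes turned from higher (746 higher, 673 lower) to lower with the length trend removed (1190 genes, 527 higher and 663 lower). Under the filter on the mean all 1065 genes kept passed, 475 higher and 590 lower. That split reflects which genes were kept and no changed call. The count of listed genes past the threshold was 845 at an adjusted p under 0.01, a stricter threshold, and 1138 to 1404 when a library was left out. The pathway genes past the threshold numbered 8 in the main setting, 7 to 8 when a library was left out, 6 under the filter on the mean, which removed Ifit1 and Oas1a, and 6 at the adjusted p under 0.01. With the replicate number as a block, 8 pathway genes and 1351 genes of the table passed. The changes of Tdg and Apobec3 stayed at -2.69 and -1.13, which a block cannot alter in a balanced design. The smallest value of Tdg rests on 89 reads.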
